A study of Mus musculus with 12 samples.

Results

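The 44 genes described here encode proteins that carry a cell from G2 through mitosis and cytokinesis. They are given as a list of gene symbols, and each symbol matched 1 of the 54532 gene rows of the count table. They were measured in bone marrow-derived macrophages (BMDM), which are macrophages grown from mouse bone marrow cells with the growth factor M-CSF, here at 10 ng/ml; the animals were 8 weeks old. Of 12 libraries of total RNA, 3 came from each of 4 groups. Hdac3f/f cells carry floxed copies of Hdac3, which encodes a histone deacetylase, and have no Cre. Lyz2-Cre-Hdac3f/f cells carry the same floxed copies plus Cre driven by Lyz2, a gene active in macrophages and other myeloid cells. Each genotype was kept for 4 h in medium alone or with 500 ng/ml lipopolysaccharide (LPS), a component of bacterial outer membranes that macrophages sense through Toll-like receptor 4. The libraries are named by the labels as C1 to C3 (Hdac3f/f untreated), L1 to L3 (Hdac3f/f with LPS), KC1 to KC3 (Lyz2-Cre-Hdac3f/f untreated) and KL1 to KL3 (Lyz2-Cre-Hdac3f/f with LPS). No group had Cre without the floxed alleles, so Cre itself and the loss of Hdac3 cannot be told apart. The labels do not say that replicates came from separate animals or cultures, so p-values measure the spread between these libraries, which may be technical.

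In a dividing cell, cyclin A2 and B-type cyclins activate the kinase Cdk1, which starts mitosis together with the Polo and Aurora kinases. Kinetochores then attach chromosomes to the spindle, the spindle checkpoint holds back the anaphase-promoting complex until all are attached, and the central spindle directs cytokinesis. Many of these genes are transcribed together in G2, through promoters with CCAAT boxes bound by NF-Y and a cell cycle homology region (CHR) bound by MuvB complexes with B-Myb and Foxm1. M-CSF drives proliferation of macrophages grown from bone marrow, and LPS is known to halt it.

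All 44 genes passed the filter on low counts and were among the 14286 genes tested. Levels are CPM, counts set relative to library size, with that size scaled by TMM, a method that assumes most genes keep their level. Library totals ran from 16553432 to 18706990 counts, and TMM factors from 0.716 to 1.26, lowest in the LPS libraries. The members held 88 (Cdc25c) to 8860 (Incenp) counts over the 12 libraries, and 41 of them averaged 1 CPM or more. Cdc25c was the 1 member at 0 counts in a library, L2, where 3 counts would be 0.234 CPM. Per kilobase of gene length, the mean level ran from 0.0878 CPM (Cenpf) through a median of 0.953 to 12.5 CPM (Incenp). The macrophage genes Csf1r and Adgre1 were at 1729 CPM or more and 1450 CPM or more in every library. Itgam, another macrophage marker, was at 105 to 119 CPM in C, 47.4 to 50.1 in KC, 151 to 221 in L and 73.2 to 76.0 in KL. Of the 8 macrophage markers, 1 was called higher and 1 lower in Lyz2-Cre-Hdac3f/f cells without LPS (5.13% and 6.66% of all tested genes). With LPS, 3 were called higher and 3 lower (15.7% and 16.9%). Hdac3 was at 36.2 to 39.6 CPM in C, 33.1 to 36.6 in KC, 38.6 to 40.7 in L and 34.4 to 38.8 in KL, and did not differ past the threshold between genotypes (edgeR adjusted p = 0.352 without and 0.473 with LPS). A whole-gene count does not show whether the floxed part was deleted. KC1 stood apart in Lyz2, at 31.0 CPM against 5176 and 5632 in KC2 and KC3. Stromal marker genes summed to 316 to 1541 CPM in C and 913 to 1875 in L, against 19.999 to 196 in KC and 42.5 to 58.3 in KL. C1 held the most of them among the untreated libraries and KC1 the least.

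RefSeq promoters (GRCm38.p6, 250 bases before to 50 after the start) were found for 35 of the 44 members. The CHR, searched as TTTGAA or TTCGAA on either strand, lay in 29 of the 35 (82.9%), against 21.7% of 27025 genes with a promoter. At least 1 CCAAT on either strand lay in 27 (77.1%, against 41.1%), and both motifs in 25 (71.4%, against 8.61%). The motifs can share an end base and were searched independently, and a gene with several starts counted when any held the motif. A match describes the letters, not binding. The 5 promoters shown belong to members that behaved differently: Ccnb2 and Cdc20, lower with LPS in both genotypes, Kif23 and Top2a, whose LPS response differed between genotypes, and Ube2c, which was not called in either LPS response. Capitals mark CHR and CCAAT motifs on either strand (TTCAAA and ATTGG are the reverse complements), and each is written 5′ to 3′ along the gene's strand. Ccnb2 (chr9:70421505-70421804, minus strand) encodes cyclin B2. Cdc20 (chr4:118437294-118437593, minus strand) activates the anaphase-promoting complex, Kif23 (chr9:61946750-61947049, minus strand) is a kinesin of the central spindle, Top2a (chr11:99024140-99024439, minus strand) is a topoisomerase that untangles sister DNA, and Ube2c (chr2:164769679-164769978, plus strand) is a ubiquitin-conjugating enzyme of the anaphase-promoting complex.
Ccnb2: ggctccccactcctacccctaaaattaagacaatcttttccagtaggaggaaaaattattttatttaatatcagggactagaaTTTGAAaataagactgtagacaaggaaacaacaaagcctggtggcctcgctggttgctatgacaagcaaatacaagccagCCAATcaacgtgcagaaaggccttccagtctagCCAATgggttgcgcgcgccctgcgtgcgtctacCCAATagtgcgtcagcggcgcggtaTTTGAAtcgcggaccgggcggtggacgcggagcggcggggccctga
Cdc20: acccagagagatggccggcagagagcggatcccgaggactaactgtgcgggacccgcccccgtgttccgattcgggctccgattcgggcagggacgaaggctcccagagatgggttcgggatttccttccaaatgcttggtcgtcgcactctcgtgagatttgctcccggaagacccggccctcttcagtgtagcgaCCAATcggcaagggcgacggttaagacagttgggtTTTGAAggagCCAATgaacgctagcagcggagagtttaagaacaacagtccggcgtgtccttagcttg
Kif23: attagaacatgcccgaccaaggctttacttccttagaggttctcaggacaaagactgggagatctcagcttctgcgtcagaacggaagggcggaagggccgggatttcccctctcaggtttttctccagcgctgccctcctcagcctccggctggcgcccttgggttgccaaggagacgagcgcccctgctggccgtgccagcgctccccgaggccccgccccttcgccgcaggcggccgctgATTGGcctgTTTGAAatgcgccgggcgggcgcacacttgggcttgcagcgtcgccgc
Top2a: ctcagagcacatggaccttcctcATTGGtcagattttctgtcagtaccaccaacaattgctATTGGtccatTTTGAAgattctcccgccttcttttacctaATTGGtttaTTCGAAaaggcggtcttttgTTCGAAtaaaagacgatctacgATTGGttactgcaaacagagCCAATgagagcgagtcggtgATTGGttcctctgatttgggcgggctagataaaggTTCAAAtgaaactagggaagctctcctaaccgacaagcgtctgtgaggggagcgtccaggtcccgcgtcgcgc
Ube2c: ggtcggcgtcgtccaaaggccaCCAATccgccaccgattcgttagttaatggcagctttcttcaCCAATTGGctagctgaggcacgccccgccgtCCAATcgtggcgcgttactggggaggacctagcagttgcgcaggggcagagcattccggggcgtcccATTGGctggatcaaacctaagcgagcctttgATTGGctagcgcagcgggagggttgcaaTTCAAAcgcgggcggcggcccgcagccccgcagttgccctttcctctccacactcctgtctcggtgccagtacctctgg
All 5 windows hold both motifs, which was part of how they were chosen and is not a result.

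Summed over the 44 genes, the level was highest in untreated Hdac3f/f cells and lowest with LPS in both genotypes. The sum was 394.5, 395.5 and 396.5 CPM in C1 to C3 and 250, 296 and 290 CPM in KC1 to KC3. The close sums in C1 to C3 hid differences by role. Entry kinases, cyclins and their regulators summed to 67.7, 77.5 and 83.5 CPM there, and chromosome factors and others to 61.5, 52.2 and 44.8. With LPS the sum over the 44 genes was 194, 171 and 203 CPM in L1 to L3 and 200, 170 and 209 CPM in KL1 to KL3. The 2 untreated groups did not overlap with each other or with the LPS groups, and the 2 LPS groups overlapped. In bulk RNA, fewer cycling cells and less of these RNAs per cell cannot be told apart.

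**Figure D1:**
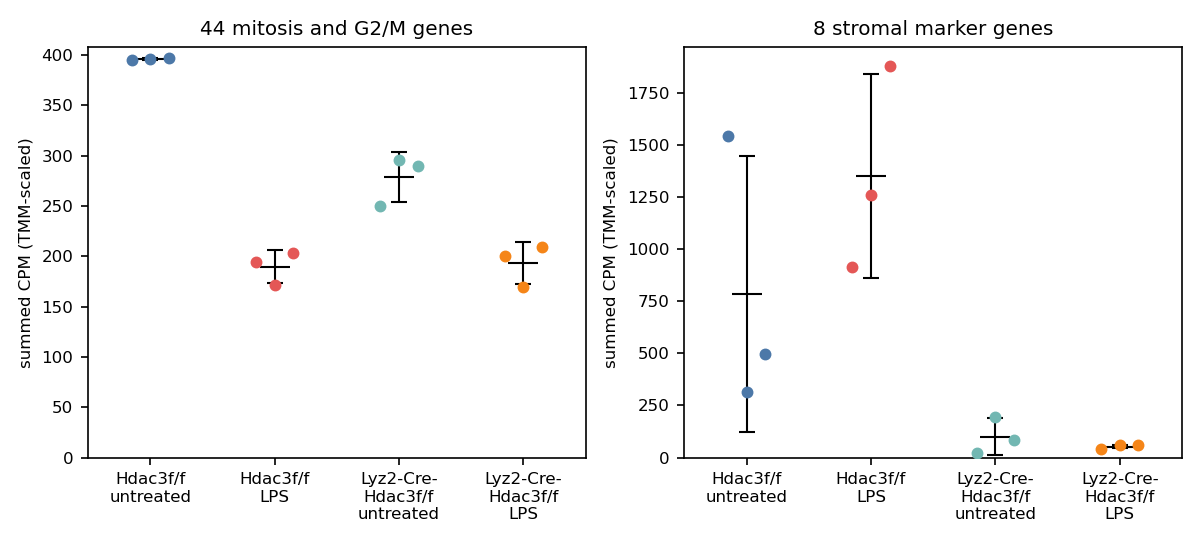
Summed CPM (TMM-scaled, vertical axis) of the 44 members (left) and of 8 stromal marker genes (right) in each library (points) of the 4 groups, with the mean and SD as bars. The sum over all members was 395 ± 0.968 CPM in untreated Hdac3f/f cells, 278 ± 24.9 in untreated Lyz2-Cre-Hdac3f/f cells, and 189 ± 16.4 and 193 ± 20.7 with LPS (SD, n = 3).

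**Figure D2:**
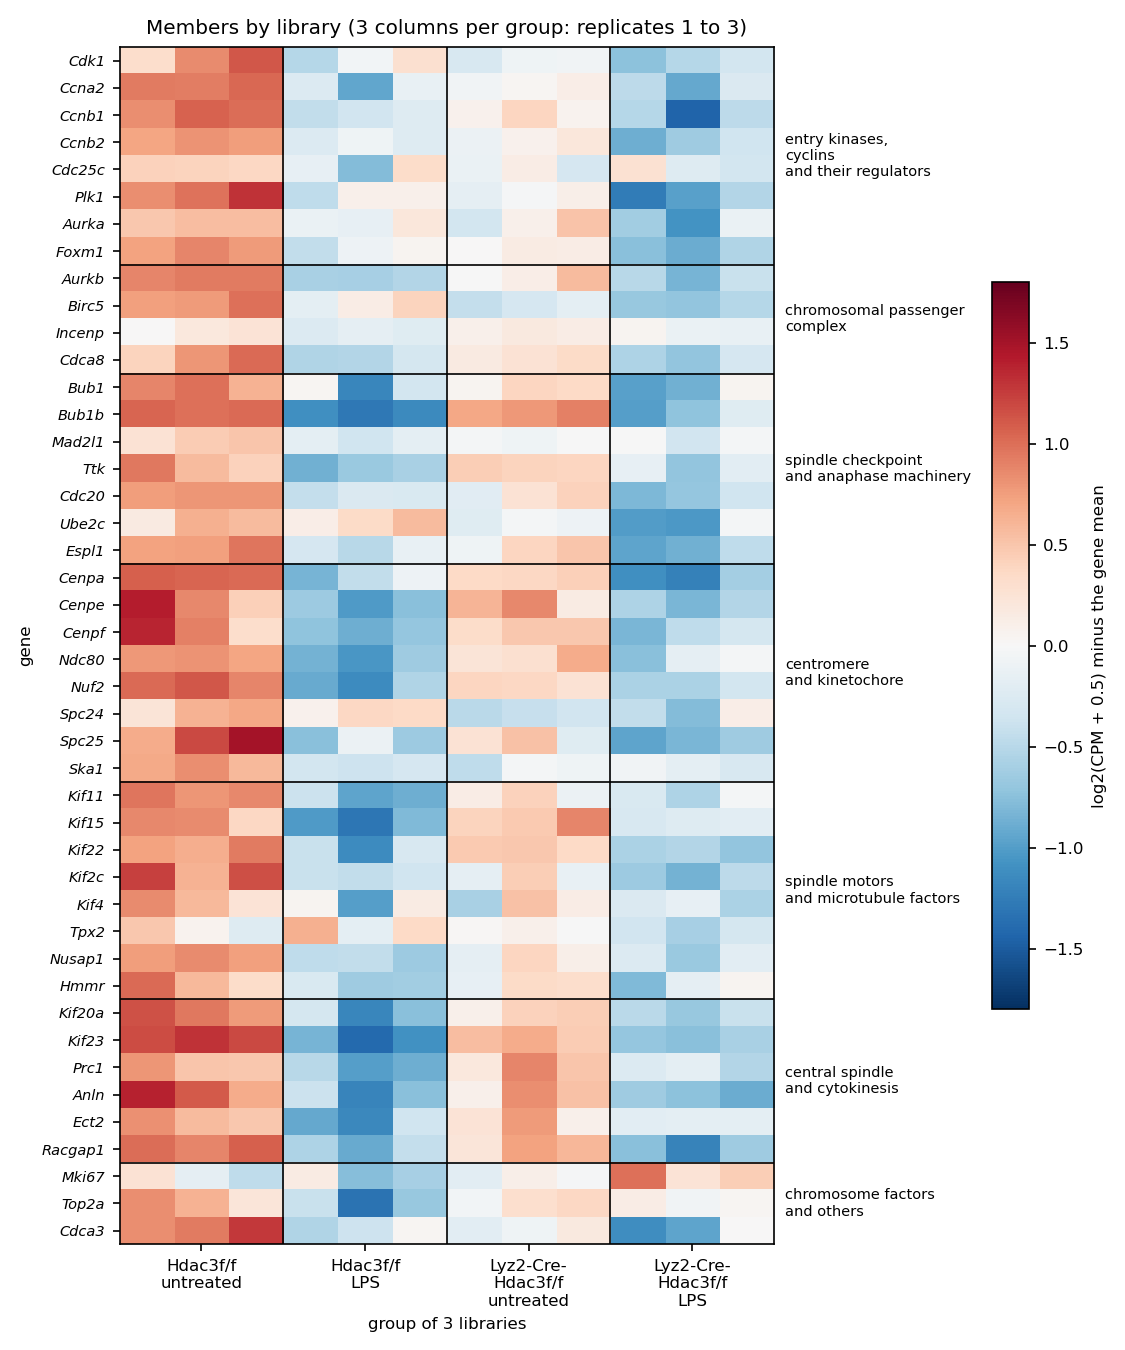
Level of each of the 44 genes (rows, by role) in each of the 12 libraries (columns, 3 per group), drawn as color, log2(CPM + 0.5) minus the gene's mean. Most rows are highest in untreated Hdac3f/f cells and lowest with LPS, while Mki67 is highest in Lyz2-Cre-Hdac3f/f cells with LPS.

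In Hdac3f/f cells, LPS lowered 37 of the 44 genes and raised none (edgeR quasi-likelihood test, Benjamini-Hochberg adjusted p under 0.05 over all tested genes). Of all tested genes, 32.1% were lower and 28.0% higher. At an unadjusted p under 0.05, 0 members were higher and 39 lower, and DESeq2 called 0 higher and 37 lower. The members' median log2 fold change was -1.48 (range -2.74 to 0.18), against -0.08 for all tested genes. In 33 members the fall was called and larger than 1 on the log2 scale, as in 19.6% of all genes. In 40 members the LPS and untreated libraries did not overlap, with LPS lower (33.1% of all genes).

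Among the 8 entry kinases, cyclins and their regulators, 6 fell with LPS in Hdac3f/f cells. Cdk1, the kinase that starts mitosis, was at 10.5, 15.5 and 18.699 CPM in C, 5.69, 8.10 and 10.3 in L, 6.80, 7.87 and 8.00 in KC and 4.82, 5.72 and 6.58 in KL. All L libraries lay below all C libraries, and the fold change was -0.89 ± 0.24 (log2 ± SE, edgeR adjusted p = 0.00531). Plk1, the Polo kinase, was at 12.2, 13.5 and 17.01 CPM in C and 4.65, 7.09 and 7.03 in L, again without overlap (-1.19 ± 0.22, edgeR adjusted p = 0.00049). Foxm1, a transcription factor of G2 genes, fell by 1.02 on the log2 scale, from 7.80, 8.70 and 8.07 CPM to 3.19, 4.21 and 4.71. The cyclin genes Ccna2, Ccnb1 and Ccnb2 had log2 fold changes of -1.46, -1.42 and -1.02. Aurka, encoding Aurora A of the spindle poles (-0.58), and Cdc25c, a phosphatase that activates Cdk1 (-1.10), were not called.

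All 4 genes of the chromosomal passenger complex, which corrects faulty attachments and acts in cytokinesis, fell. Incenp, its scaffold, was the most abundant member, at 40.0, 45.4 and 47.2 CPM in C, 33.5, 35.6 and 34.1 in L, 42.5, 45.2 and 43.7 in KC and 41.3, 36.7 and 36.2 in KL. The L libraries lay below the C libraries, with a small fall of 0.36 on the log2 scale (edgeR adjusted p = 0.00652). Birc5, which encodes survivin, was at 8.75, 8.95 and 10.5 CPM in C and 4.44, 5.61 and 6.82 in L (-0.74 ± 0.18, edgeR adjusted p = 0.00313). Aurkb, the complex's kinase, and Cdca8, encoding borealin, had log2 fold changes of -1.61 and -1.30.

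Of the 7 spindle checkpoint and anaphase genes, 6 fell. Bub1b, whose product BubR1 is part of the checkpoint complex, was at 13.3, 12.8 and 13.2 CPM in C and 2.64, 2.26 and 2.54 in L. These groups were far apart, with a log2 fold change of -2.40 ± 0.20 (edgeR adjusted p = 3.4e-07). Mad2l1, encoding the checkpoint protein Mad2, was at 11.3, 13.0 and 13.4 CPM in C and 8.19, 7.17 and 8.19 in L (-0.68 ± 0.14, edgeR adjusted p = 0.000846). Ttk, the checkpoint kinase, Bub1, a kinetochore kinase, Cdc20 and Espl1, which encodes separase, had log2 fold changes of -2.37, -1.55, -1.17 and -1.20. Ube2c was the member of this group that was not called (-0.12): it was at 6.59, 9.34 and 8.89 CPM in C and 6.39, 7.55 and 8.92 in L, which overlap.

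Of the 8 centromere and kinetochore genes, 7 fell, with a median log2 fold change of -1.93. Cenpa, the histone H3 variant of centromeres, was at 15.5, 15.1 and 14.9 CPM in C, 3.75, 5.06 and 6.60 in L, 9.22, 9.33 and 9.64 in KC and 3.02, 2.77 and 4.45 in KL. Every L library was below every C library (-1.56 ± 0.20, edgeR adjusted p = 2.23e-05). Nuf2 and Ndc80, subunits of the complex that binds microtubules, had log2 fold changes of -2.20 and -1.92. The kinetochore motor Cenpe and the large coiled-coil protein gene Cenpf had values of -2.23 and -2.49. Spc25, another subunit of the Ndc80 complex, and Ska1, which strengthens its grip on microtubules, had values of -1.93 and -1.72, and Spc24 was not called (-0.29).

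The spindle motors and microtubule factors fell in 6 of 8 cases. Kif11, the motor that pushes spindle poles apart, was at 7.497, 6.61 and 6.999 CPM in C and 2.64, 1.64 and 1.74 in L (-1.803 ± 0.24, edgeR adjusted p = 2.78e-05). Kif15, a motor that can share this task, was at 3.16, 3.11 and 2.09 CPM in C and 0.486, 0.312 and 0.653 in L (-2.51 ± 0.33, edgeR adjusted p = 2.06e-05). The groups did not overlap for either motor. Tpx2, which activates Aurora A and nucleates microtubules, was at 12.5, 9.14 and 7.41 CPM in C and 13.95, 7.71 and 11.3 in L. These overlapped and Tpx2 was not called (0.18 ± 0.22, edgeR adjusted p = 0.497). Kif4, a motor that binds chromosomes, was not called either (-1.01), while the microtubule-depolymerizing kinesin gene Kif2c, the chromosome-binding kinesin gene Kif22 and the spindle factor genes Nusap1 and Hmmr had log2 fold changes of -1.69, -1.47, -1.49 and -1.52.

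All 6 central spindle and cytokinesis genes fell. Kif23 showed the lowest log2 fold change among the members (-2.74 ± 0.22, edgeR adjusted p = 2.04e-07), from 7.06, 7.78 and 7.15 CPM in C to 1.39, 0.779 and 1.09 in L. Racgap1, its partner in the centralspindlin complex, was at 15.99, 14.7 and 16.8 CPM in C, 5.07, 3.89 and 5.58 in L, 9.08, 13.1 and 11.9 in KC and 4.40, 3.06 and 4.76 in KL (-1.70 ± 0.20 for L against C, edgeR adjusted p = 7.91e-06). The groups C and L did not overlap for either gene. Anln, encoding the scaffold anillin, Ect2, which activates RhoA at the cleavage furrow, Prc1, which bundles spindle microtubules, and Kif20a had values of -2.24, -1.71, -1.66 and -1.93.

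Of the chromosome factors and others, Top2a and Cdca3 fell and Mki67 was not called. Top2a was at 30.1, 26.0 and 19.5 CPM in C and 12.4, 6.31 and 10.2 in L, without overlap (-1.38 ± 0.22, edgeR adjusted p = 0.000143). Mki67, which encodes the proliferation marker Ki-67, was at 23.3, 17.4 and 13.999 CPM in C and 21.6, 11.2 and 12.6 in L, which overlap (-0.27 ± 0.26, edgeR adjusted p = 0.407). Cdca3, a trigger of mitotic entry, had a log2 fold change of -1.41. Among 10 myeloid progenitor markers, 3 were lower and 1 higher with LPS in Hdac3f/f cells, a share lower near the 32.1% of all genes. Their sum was 141 to 256 CPM in C and 85.3 to 117 in L. The markers did not move together: Mpo was lower (-1.87), Kit was not called (0.53) and Gfi1 was higher (3.87). Their part in the members' fall was not tested.

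In Lyz2-Cre-Hdac3f/f cells, LPS lowered 27 members and raised 0, against 27.7% of all genes lower and 25.2% higher. At an unadjusted p under 0.05 there were 1 higher and 30 lower, and DESeq2 called 1 higher (Mki67) and 27 lower. The median log2 fold change was -0.85 (range -1.63 to 0.64), against -0.08 for all genes. In 15 members the fall was called and larger than 1 (15.5% of all genes). In 31 members the libraries were apart with LPS lower (34.9% of all genes). Between the responses, which share no sample, 26 genes fell in both, 11 in Hdac3f/f cells alone and Aurka, chosen after its values were seen, in Lyz2-Cre-Hdac3f/f cells alone. The 26 are 70.3% of the 37 and 96.3% of the 27, and over all tested genes the corresponding shares were 71.9% and 83.4%. Being called in 1 genotype alone is not a test of a difference, which the interaction gives.

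By role, the counts lower with LPS in Lyz2-Cre-Hdac3f/f cells were 6 of 8 entry genes, 2 of 4 chromosomal passenger genes, 4 of 7 checkpoint and anaphase genes, 6 of 8 kinetochore genes, 4 of 8 motors, 5 of 6 cytokinesis genes and 0 of 3 chromosome factors. Plk1 was at 5.82, 6.49 and 7.11 CPM in KC and 2.47, 3.12 and 4.45 in KL (-0.95 ± 0.23, edgeR adjusted p = 0.0041). Bub1b was at 10.4, 11.1 and 12.1 CPM in KC and 2.89, 3.58 and 5.26 in KL (-1.52 ± 0.19, edgeR adjusted p = 1.9e-05). Both were lower with LPS without overlap. Cenpa and Racgap1, whose levels are given above, had log2 fold changes of -1.46 and -1.48, also without overlap between KC and KL. Kif23 had a value of -1.48 and Anln, at -1.63, fell the most. Cdk1 (-0.41 ± 0.24, edgeR adjusted p = 0.177), Incenp (-0.20), Mad2l1 (-0.09), Birc5 (-0.39), Kif11 (-0.50), Tpx2 (-0.48), Ube2c (-0.56) and Top2a (-0.19) were not called. Mki67 was at 16.9, 20.9 and 19.1 CPM in KC and 39.0, 23.2 and 26.6 in KL. All KL libraries lay above all KC libraries, with a log2 fold change of 0.64 ± 0.26 that missed the threshold (edgeR adjusted p = 0.0514). None of the 10 progenitor markers was called lower in this response.

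**Figure D3:**
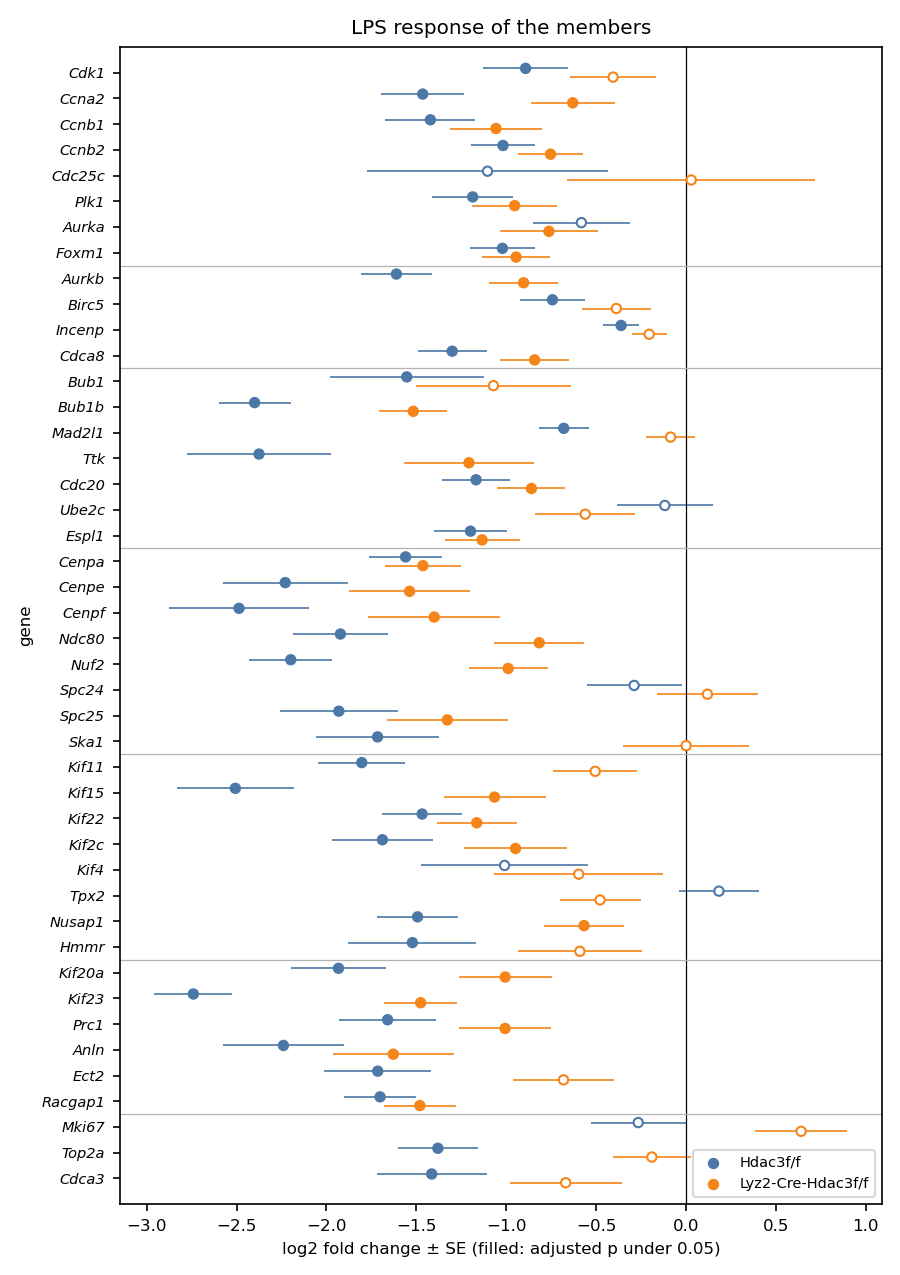
Log2 fold change with LPS against untreated (horizontal axis, ± SE) for each member (vertical axis) in Hdac3f/f and Lyz2-Cre-Hdac3f/f cells; filled points have an adjusted p under 0.05. Almost all values lie below 0, and those in Lyz2-Cre-Hdac3f/f cells lie closer to 0 or above it in 41 of 44 genes.

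Between genotypes without LPS, 20 of the 44 genes were lower in Lyz2-Cre-Hdac3f/f cells and 0 higher, against 6.66% lower and 5.13% higher among all genes. At an unadjusted p under 0.05 there were 0 higher and 25 lower, and DESeq2 called 0 higher and 21 lower. The median log2 difference was -0.63 (range -1.39 to 0.06), against 0.03 for all genes. In 7 members the difference was called and larger than 1 (3.37% of all genes). In 30 members the groups did not overlap, with Lyz2-Cre-Hdac3f/f lower (16.5% of all genes). The count depended on single untreated libraries: it was 2 without KC1, 4 without C2, 4 without C3, 7 without KC3, 9 without KC2 and 19 without C1. These fits also hold fewer libraries per group. The median stayed between -0.74 and -0.56. Without both C1 and KC1, the libraries at the ends of the stromal marker range, 8 members were called. Of 7 tested stromal markers, 5 were lower in this comparison, and Pdgfra and Lum were at 0 counts in KC1. Neutrophil markers, 2 of 6 tested lower, summed to 128 to 213 CPM in C and to 17.2, 75.0 and 72.9 in KC1 to KC3. Myeloid progenitor markers, 0 of 10 called, summed to 141 to 256 CPM in C and 70.4 to 144 in KC. Mast cell and basophil markers, 6 of 7 tested higher, summed to 90.5 to 121 CPM in C and 142 to 225 in KC. Lymphocyte markers, 2 of 5 tested higher, summed to 9.38 to 11.8 CPM in C and 12.2 to 17.9 in KC. The part of these cells in the members' difference was not tested.

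Birc5 was at 3.64, 4.00 and 4.42 CPM in KC against 8.75, 8.95 and 10.5 in C, without overlap (-1.22 ± 0.18, edgeR adjusted p = 0.00158). The entry genes held 6 of the 20 calls. Plk1 differed by -1.14 ± 0.22 (edgeR adjusted p = 0.00711), and Cdk1 by -0.98 ± 0.23 (edgeR adjusted p = 0.0187), both with every KC library below every C library. Foxm1, at 4.56, 5.07 and 5.02 CPM in KC, differed by -0.75, and Ccna2, Ccnb1 and Ccnb2 by -0.99, -0.84 and -0.74. Kinetochore genes gave 5 calls, among them Ska1 (-1.39), Spc24 (-1.11), Spc25 (-1.05) and Cenpa (-0.69). Motors gave 3, Kif2c (-1.09), Kif11 (-0.77) and Nusap1 (-0.73). Passenger genes gave 2, Birc5 and Aurkb (-0.71), and the checkpoint genes 2, Cdc20 (-0.63) and Mad2l1 (-0.47). Cytokinesis genes gave 1, Kif23 (-0.71), and chromosome factors 1, Cdca3 (-1.13). Bub1b (-0.23), Kif15 (-0.15), Tpx2 (-0.11) and Top2a (-0.37) were not called, nor were Incenp and Mki67.

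With LPS, the genotypes differed in both directions: 4 members were higher in Lyz2-Cre-Hdac3f/f cells (15.7% of all genes) and 5 lower (16.9%). Both counts are smaller shares of 44 than the shares of all genes. The median log2 difference was -0.04, against 0.02 for all genes. In 8 members KL lay wholly above L (20.5% of all genes) and in 8 wholly below (22.7%). With scaling by library totals alone, which put the median of all genes at 0.29 in this comparison, 12 were higher and 3 lower. The 4 higher genes were Mki67, Top2a, Bub1b and Kif15. Mki67 was at 39.0, 23.2 and 26.6 CPM in KL against 21.6, 11.2 and 12.6 in L (0.96 ± 0.26, edgeR adjusted p = 0.0153). Top2a was at 18.3, 15.8 and 17.04 CPM in KL against 12.4, 6.31 and 10.2 in L (0.82 ± 0.23, edgeR adjusted p = 0.0164). For both genes every KL library lay above every L library. Bub1b differed by 0.65 ± 0.21 (edgeR adjusted p = 0.0313). Kif15 was at 1.15, 1.21 and 1.25 CPM in KL against 0.486, 0.312 and 0.653 in L (1.30 ± 0.35, edgeR adjusted p = 0.0141), the largest of the 4.

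The 5 lower genes were Birc5, Foxm1, Plk1, Tpx2 and Ube2c, chosen for description after their values were seen. Ube2c was at 2.65, 2.60 and 5.70 CPM in KL against 6.39, 7.55 and 8.92 in L (-1.06 ± 0.28, edgeR adjusted p = 0.0129). Plk1 was at 2.47, 3.12 and 4.45 CPM in KL against 4.65, 7.09 and 7.03 in L (-0.90 ± 0.24, edgeR adjusted p = 0.0136). Birc5 was at 2.95, 2.89 and 3.38 CPM in KL against 4.44, 5.61 and 6.82 in L (-0.87 ± 0.19, edgeR adjusted p = 0.00548). These 3 genes did not overlap between genotypes. Tpx2 was at 6.81, 5.60 and 6.95 CPM in KL against 13.95, 7.71 and 11.3 in L (-0.77 ± 0.23, edgeR adjusted p = 0.0219). Foxm1 was at 2.47, 2.19 and 2.94 CPM in KL against 3.19, 4.21 and 4.71 in L (-0.67 ± 0.19, edgeR adjusted p = 0.0203). Both were again lower in every KL library. Leaving out 1 library gave 1 to 11 lower and 0 to 6 higher members: 1 lower without KL1, KL2 or L3, 3 without L2 and 11 without KL3, and 0 higher without L2. All 7 tested stromal markers were lower in this comparison, 4 of 7 markers of mast cells and basophils lay higher and 1 lower, and 3 of 5 lymphocyte markers were higher. The part of these cells was not tested.

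The members' fold changes moved with gene length, most so in the genotype differences. In 15 short, 14 middle and 15 long members by deposited length (up to 4067, up to 5674 and up to 15433 bases), the median difference with LPS was -0.38, -0.11 and 0.47, against -0.08, 0.00 and 0.20 for all genes in the same length classes. Without LPS the medians were -0.74, -0.60 and -0.48, against -0.03, 0.03 and 0.14. Across the 44 members, Pearson's r of length and difference was 0.53 with LPS and 0.49 without, given as a description since genes share libraries. For the LPS response r was -0.40 in Hdac3f/f and -0.27 in Lyz2-Cre-Hdac3f/f cells, and for the interaction 0.28. The median LPS response in Hdac3f/f cells was -1.17, -1.49 and -1.70 in short, middle and long members. For all genes in these classes it was -0.01, -0.10 and -0.21. A fit that removed each library's trend with length over expressed genes in general was an alternative added after the data were seen. Between genotypes with LPS it called 4 members higher and 7 lower, and Kif15, Mki67, Top2a and Bub1b differed by 1.01, 0.71, 0.60 and 0.62. For the LPS responses it called 37 members lower in Hdac3f/f cells, and 28 lower and 1 higher in Lyz2-Cre-Hdac3f/f cells. For the interaction it called 4 members higher and 0 lower. How far the members' own trend with length remained was not tested.

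**Figure D4:**
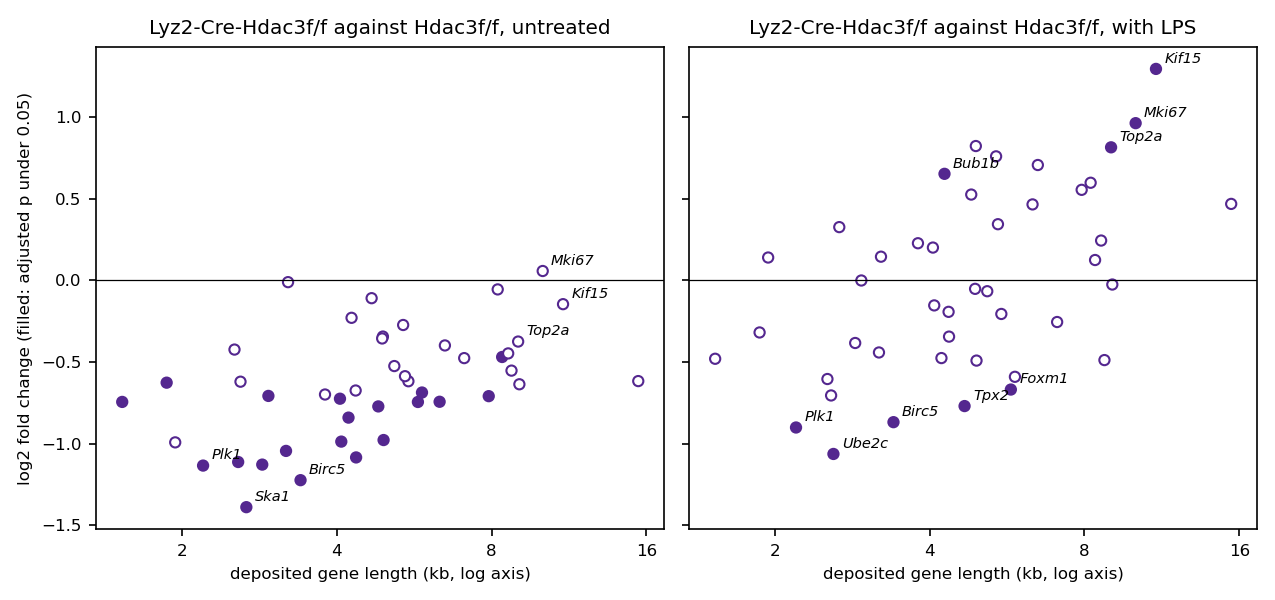
Log2 difference of each member between Lyz2-Cre-Hdac3f/f and Hdac3f/f (vertical axis) against its deposited gene length (horizontal log axis, kb), without and with LPS; filled points have an adjusted p under 0.05. With LPS the short members lie mostly below 0 and the long ones mostly above it (medians -0.38 and 0.47).

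The interaction sets the 2 LPS responses against each other, and is positive where the log2 response was higher with Cre. It was called in 4 members, all with a smaller fall in Lyz2-Cre-Hdac3f/f cells (2.58% of all genes were higher and 5.54% lower). At an unadjusted p under 0.05 there were 15 higher and 0 lower, and DESeq2 called 5 higher and 0 lower. The sign was positive in 41 of 44 members, against 7371 of 14286 genes, and the median was 0.63, against 0.02. Since the interaction holds all 4 groups, a lower untreated level in Lyz2-Cre-Hdac3f/f cells enters it as much as a higher level with LPS.

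Top2a (chr11:98992943-99024189 in mm10) was at 15.97, 20.7 and 21.6 CPM in KC and 18.3, 15.8 and 17.04 in KL, which overlap, while L lay below C, and its interaction was 1.19 ± 0.31 (edgeR adjusted p = 0.0341). Kif11 (chr19:37376403-37421859) was at 4.03, 4.98 and 3.33 CPM in KC and 2.89, 2.31 and 3.51 in KL, again with overlap, and its interaction was 1.30 ± 0.34 (edgeR adjusted p = 0.033). Kif23 (chr9:61915905-61946774) was at 4.47, 4.84 and 4.13 CPM in KC and 1.57, 1.501 and 1.75 in KL, a fall without overlap, and its interaction was 1.26 ± 0.30 (edgeR adjusted p = 0.0229). Nuf2 (chr1:169497934-169531464) was at 5.89, 6.32 and 5.26 CPM in C, 1.18, 0.935 and 1.67 in L, 3.59, 3.56 and 3.28 in KC and 1.63, 1.62 and 2.005 in KL, with an interaction of 1.21 ± 0.32 (edgeR adjusted p = 0.0349). In Kif11, Kif23 and Nuf2 the untreated level was called lower in Lyz2-Cre-Hdac3f/f cells and the level with LPS was not called different. In Top2a the level with LPS was called higher and the untreated level was not called.

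The 4 calls did not hold under all alternatives. Over 20 alternatives the edgeR or DESeq2 adjusted p ran from 0.00042 to 0.0901 for Top2a, 0.0084 to 0.0805 for Kif11, 0.0081 to 0.0690 for Kif23 and 0.0174 to 0.0972 for Nuf2. The count of members called was 0 without C2 or without KC3, 1 without KC1, KL3 or L3, 2 without C1, KC2, KL2 or L2, and 6 without L1. Kif15 (1.44 ± 0.44, edgeR adjusted p = 0.0621), Ska1 (1.72), Bub1b (0.88), Ndc80 (1.11), Mad2l1 (0.59) and Mki67 (0.91) were positive and missed the threshold. Tpx2 (-0.66), Ube2c (-0.44) and Aurka (-0.18) were the 3 members with a negative sign, and none was called.

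**Figure D5:**
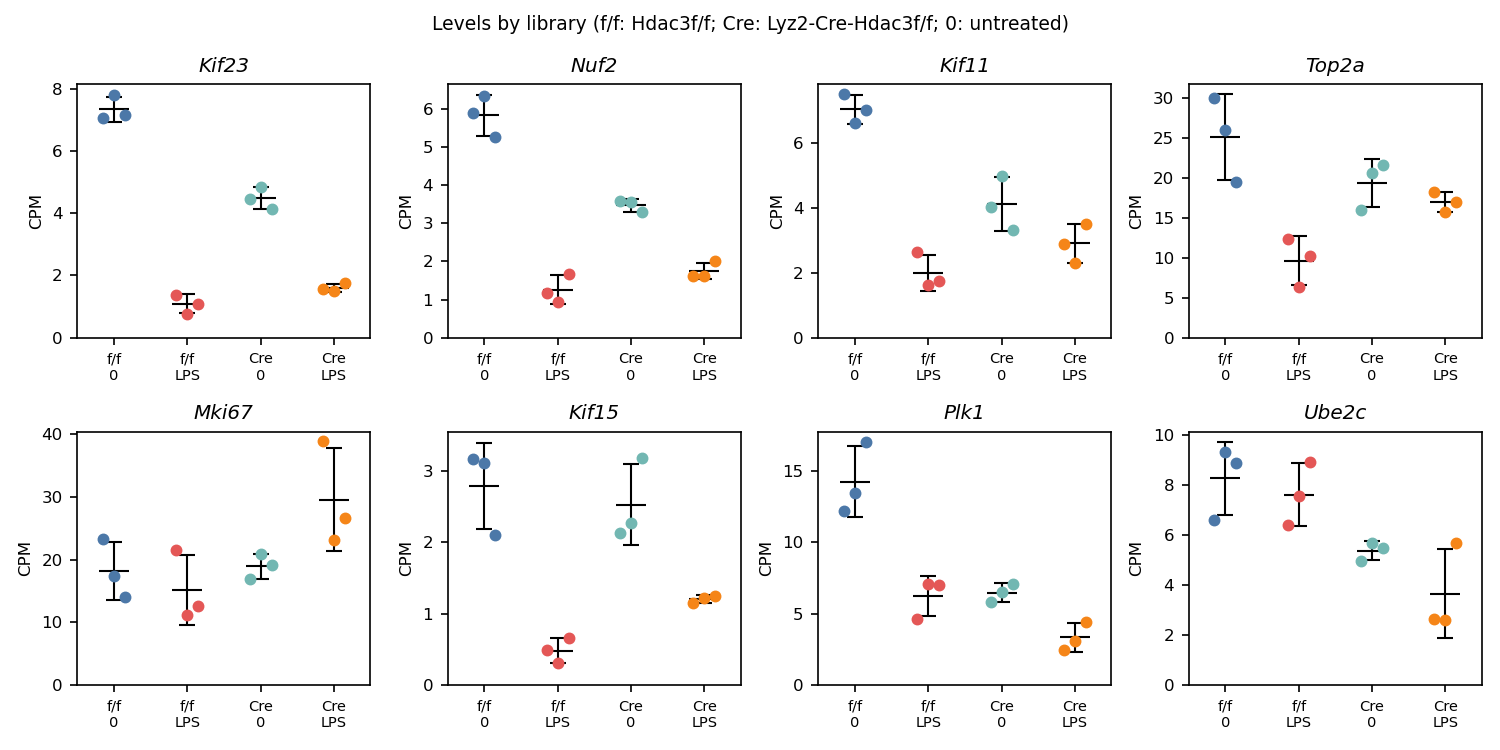
CPM (vertical axis) in each library (points) with the mean and SD for Kif23, Nuf2, Kif11, Top2a, Mki67, Kif15, Plk1 and Ube2c in the 4 groups. Top2a fell with LPS in Hdac3f/f cells and overlapped between treatments in Lyz2-Cre-Hdac3f/f cells, and Mki67 was highest in Lyz2-Cre-Hdac3f/f cells with LPS (39.0, 23.2 and 26.6 CPM).

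Other genes of the pathway are given as counts, to be read against the shares of all tested genes: 32.1% lower and 28.0% higher with LPS in Hdac3f/f cells, 27.7% and 25.2% in Lyz2-Cre-Hdac3f/f cells, 6.66% and 5.13% between genotypes without LPS, 16.9% and 15.7% with LPS, and 5.54% and 2.58% in the interaction. Of 17 condensin and cohesin genes, which compact and hold together chromosomes, LPS lowered 12 and raised 0 in Hdac3f/f cells, and lowered 8 and raised 1 in Lyz2-Cre-Hdac3f/f cells. Between genotypes, 0 were called without LPS, and with LPS 12 were higher in Lyz2-Cre-Hdac3f/f cells and 0 lower, among them Ncapd3 (1.55) and Smc2 (1.22). In the interaction 4 were higher and 0 lower. Of 40 other spindle and kinetochore genes, LPS lowered 30 and raised 2 in Hdac3f/f cells, and lowered 23 and raised 1 in Lyz2-Cre-Hdac3f/f cells. Between genotypes 5 were lower and 0 higher without LPS, and 4 lower and 5 higher with LPS. The interaction called 1 of these 40 genes higher and 0 lower. Pttg1, encoding securin, was raised by LPS in Hdac3f/f cells (2.36) and was lower in Lyz2-Cre-Hdac3f/f cells with LPS (-3.29). Of 35 DNA replication and S phase genes, LPS lowered 27 and raised 3 in Hdac3f/f cells, and lowered 20 and raised 3 in Lyz2-Cre-Hdac3f/f cells. Between genotypes 11 were lower and 0 higher without LPS, and 4 lower and 8 higher with LPS. Ccne1, encoding cyclin E1, rose with LPS in both genotypes (1.59 and 1.93). In the interaction, 10 of these 35 were higher and 0 lower, among them Cdc6 (1.40) and Rrm2 (1.10).

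The remaining lists had smaller shares lower or moved in both directions. Of 17 subunits and regulators of the anaphase-promoting complex, LPS lowered 4 and raised 4 in Hdac3f/f cells, and lowered 4 and raised 3 in Lyz2-Cre-Hdac3f/f cells, no larger shares than among all genes. Ube2s, which extends ubiquitin chains, rose in Hdac3f/f cells (1.91), and Fbxo5, encoding an inhibitor of the complex, fell (-1.62). Of 11 other regulators of mitotic entry, LPS lowered 5 and raised 1 in Hdac3f/f cells, and lowered 4 and raised 3 in Lyz2-Cre-Hdac3f/f cells. In Hdac3f/f cells the phosphatase gene Cdc25b was at -2.54 and the inhibitory kinase gene Wee1 at -2.08. Of 17 MuvB, DREAM and E2F factors, which control cell cycle transcription, LPS lowered 7 and raised 4 in Hdac3f/f cells, and lowered 3 and raised 5 in Lyz2-Cre-Hdac3f/f cells. In Hdac3f/f cells Tfdp2 was at -3.55 and E2f4 at 0.90. Between genotypes without LPS, 4 of the 11 entry regulators and 3 of these 17 factors were lower and 0 of either list higher. In the anaphase-promoting complex list 0 were lower and 2 higher. With LPS, 5 genes of that complex were lower and 3 higher, 3 entry regulators lower and 0 higher, and 1 of these factors lower and 4 higher. The interaction called 3 of these factors higher and 0 lower, and 0 genes of the other 2 lists.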

How the data were processed

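The authors deposited counts per gene and library as whole numbers, with a gene length in bases; per the submitters' processing notes the reads were aligned with TopHat2 to mm10. The counting tool, its strand setting and the annotation are not given in the sources used here. For 8 members, a gene on the other strand overlaps and holds counts equal to at least 10% of theirs, so their values are uncertain. This share was 1420% for Cdc20, 1383% for Kif4, 486% for Kif20a, 190% for Ccna2, 126% for Cdca8 and 100% for Prc1. It was 27.0% for Nusap1 and 10.2% for Cdc25c. Counts were filtered with filterByExpr, scaled by TMM and fitted with edgeR 4.0.16 (R 4.3.3) by quasi-likelihood over all 12 libraries, each group having its own coefficient, giving 5 contrasts. The p-values were adjusted by Benjamini-Hochberg over 14286 genes, and a gene was called under 0.05. DESeq2 1.42.0, other scalings and filters, leaving out libraries, a replicate block and a gene length offset were alternatives. The scripts were tested on simulated data. Members and lists were chosen with earlier results of these data known. Values by library, for some genes in only part of the 4 groups, are given for the member with the highest mean CPM of each role group. They are also given for members called in the interaction and members called against the majority direction. In the other lists, named genes come from the 2 lowest p-values per direction.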

Additional observations from a re-analysis of the deposited data

Results flagged for a closer look

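The LPS response differed between genotypes in 4 members by the interaction test (edgeR, adjusted p under 0.05), which is what set them apart. Of all tested genes, 2.58% were called higher in this test. The count of members called was 0 without C2 or without KC3, and 6 without L1. With the response of Hdac3f/f cells subtracted, that of the Cre-bearing cells was higher by 1.21 on the log2 scale for Nuf2, 1.30 for Kif11, 1.26 for Kif23 and 1.19 for Top2a.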

How the results depend on the processing

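The members' fall with LPS kept its direction in all alternatives run, and leaving out 1 library gave 37 to 38 members lower in Hdac3f/f and 22 to 29 lower and 0 to 1 higher in Lyz2-Cre-Hdac3f/f cells. Leaving out 1 library gave 2 to 21 lower members without LPS between genotypes, 1 to 11 lower and 0 to 6 higher with LPS, and 0 to 6 in the interaction; the medians were -0.21 to 0.075 with LPS between genotypes and 0.56 to 0.81 in the interaction. Over all genes it gave 779 to 2530 calls without LPS, 2798 to 6004 with LPS and 530 to 1996 in the interaction. Library totals alone shifted the median of all genes to -0.72 and -0.46 in the LPS responses and gave member medians of -2.11 (Hdac3f/f), -1.24 (Lyz2-Cre-Hdac3f/f), 0.22 (genotypes with LPS) and 0.87 (interaction), with 3 lower and 12 higher members between genotypes with LPS and 11 in the interaction. DESeq2 size factors, no filter, the DESeq2 Wald test, only the groups compared, the replicate block and the gene length offset each called 1 member higher with LPS in Lyz2-Cre-Hdac3f/f cells. The DESeq2 Wald test called 8 members lower between genotypes with LPS and 1775 genes in the interaction. The replicate block called 9 members lower between genotypes with LPS. Deviations from the group mean correlated at r from -0.39 to 0.28 over 18 same-numbered pairs and -0.44 to 0.47 over 36 other pairs. With 3 libraries per group, these values cannot show whether the numbers pair the samples. Without C1 and KC1, chosen after seeing the data, 8 members were lower without LPS and 1 was called in the interaction. The sign turned for Tpx2 with LPS in Hdac3f/f cells (-0.45 with library totals, -0.017 without L1, up to 0.41 over single libraries left out and 0.42 without C1 and KC1), for Ube2c there (0.0026 without L1, down to -0.26 over single libraries left out, and -0.75 with library totals), for Aurka in the interaction (0.059 with library totals, 0.076 without KC3, 0.056 without KL2, down to -0.48), for Mad2l1 with LPS in Lyz2-Cre-Hdac3f/f cells (0.028 without KL2, down to -0.12 over single libraries left out, and -0.47 with library totals), for Tpx2 between untreated genotypes (0.11 without C1 and 0.11 without C1 and KC1, down to -0.27) and for Kif15 there (0.047 without C1 and KC1). None of these was called in any alternative run other than library totals, where Ube2c and Mad2l1 were called lower (edgeR adjusted p = 0.0185 and 0.0111). The cause was not tested. Low counts limit Cdc25c, at 88 counts in all.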
